A study of Rattus norvegicus with 2 samples.

Results

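Cd9 and 9 other tetraspanin genes were followed in the sympathetic neurons of the rat stellate ganglion, the ganglion that supplies most of the sympathetic nerves of the heart. The genes were taken by symbol (Cd9, Cd63, Cd81, Cd82, Cd151, Tspan3, Tspan5, Tspan7, Tspan8 and Tspan13), and all 10 have a line among the 25395 genes with a unique name. The list was chosen by symbol around Cd9, which was selected on its much lower mean in the SHR (spontaneously hypertensive rat) in these same values, so its difference is a description and carries no test. Ganglia of male rats aged 5 to 6 weeks were dissociated with collagenase IV and trypsin, and single cells were sequenced with 10x Genomics 3' v3 chemistry (scRNAseq). There was 1 library from normotensive Wistar rats, an outbred stock, and 1 from prehypertensive SHRs, an inbred strain, and neither group is labelled with a treatment. The number of animals behind each library is not given in the sources used here.

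For each library there is 1 value per gene, a mean over the cells of the sympathetic neuron cluster, given here per 10000 counts of a cell. These means add up to 10000 in each library, whereas the numbers of neurons and of counts per neuron are unknown. Each strain has a single library, hence no spread over replicates, and no SD, interval or test of a strain difference can be given. A mean over cells also cannot tell fewer neurons with a transcript from less transcript per neuron. Changes are given as the ratio or percent change of the mean, and as the difference of log2(1 + mean), SHR minus Wistar, in which the added 1 shrinks the differences of low genes. The cluster carried the defining markers of sympathetic neurons, Slc6a2, Th and Dbh, at 15.9, 10.2 and 10.2 per 10000 in the Wistar library and at 15.2, 10.1 and 6.36 in SHR.

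Tetraspanins are small proteins that cross the membrane repeatedly and hold integrins, immunoglobulin proteins, proteases and one another in patches of membrane known as tetraspanin-enriched microdomains. Cd9, Cd81 and Cd63 are also the usual markers of extracellular vesicles. Through their partners the proteins take part in cell adhesion, axon growth, receptor trafficking and the shedding of surface proteins. In peripheral nerve Cd9 is found on Schwann cells as well as on neurons.

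The bases before the start of 3 genes are shown because they are the member with the largest difference (Cd9), the most abundant member in SHR (Tspan8) and the member with the highest difference (Tspan7). The sequences are from RefSeq in the GRCr8 assembly, which is not the Rnor_6.0 build named for the deposited values. Each is the 250 bases before the annotated start, 5′ to 3′ on the strand of the gene, at chr4:159975359-159975608 (minus strand), chr7:53330937-53331186 (plus strand) and chrX:14978628-14978877 (minus strand). Capitals mark matches, on either strand, to the GC box (GGGCGG), the CCAAT box (CCAAT) or the TATA box (TATAAA).
Cd9: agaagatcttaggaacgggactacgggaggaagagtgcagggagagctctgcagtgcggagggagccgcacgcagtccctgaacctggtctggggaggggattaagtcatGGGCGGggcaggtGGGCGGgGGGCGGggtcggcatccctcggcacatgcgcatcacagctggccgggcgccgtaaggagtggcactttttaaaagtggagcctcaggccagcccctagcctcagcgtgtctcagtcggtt
Tspan8: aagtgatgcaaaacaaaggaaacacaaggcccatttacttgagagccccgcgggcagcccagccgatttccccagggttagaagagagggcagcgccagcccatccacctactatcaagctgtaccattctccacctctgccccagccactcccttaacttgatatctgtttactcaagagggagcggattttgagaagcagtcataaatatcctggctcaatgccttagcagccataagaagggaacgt
Tspan7: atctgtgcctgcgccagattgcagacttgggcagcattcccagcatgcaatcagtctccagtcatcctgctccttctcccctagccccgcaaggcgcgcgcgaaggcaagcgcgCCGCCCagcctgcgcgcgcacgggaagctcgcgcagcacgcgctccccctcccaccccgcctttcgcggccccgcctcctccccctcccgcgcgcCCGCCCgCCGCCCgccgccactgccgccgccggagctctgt
The Cd9 window held 3 GC boxes on the gene strand, which begin 140, 127 and 120 bases before the start. The Tspan7 window held 3 on the opposite strand, and none of the 3 motifs was matched in the Tspan8 window. A sequence was found for 9 of the 10 members, of which 7 held a GC box, 2 a CCAAT box and 0 a TATA box. The same windows of 27457 rat genes held these motifs in 32.4%, 34.3% and 13.1% of cases. A match describes the letters and does not show a site in use. GC content was 64.0% for Cd9, 51.2% for Tspan8 and 73.6% for Tspan7, against a median of 52.0% over all windows.

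Cd9 ranked 1 by level among the tetraspanin family in the Wistar neurons and 4 in the SHR neurons. Its mean was 16.2 per 10000 in the Wistar library and 5.27 in SHR, a 3.08-fold lower mean, a change of -67.5% and a log2 difference of -1.46. Among all genes it ranked 40 in Wistar and 275 in SHR. Of the 7621 genes with an average over both libraries of at least 0.1 per 10000, the minimum used throughout, 3 had a lower log2 difference than Cd9. These 3 were AC134224.1 (-1.72), AC134224.3 (-1.62) and Rsrp1 (-1.46), which were named after their values were seen.

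**Figure D1:**
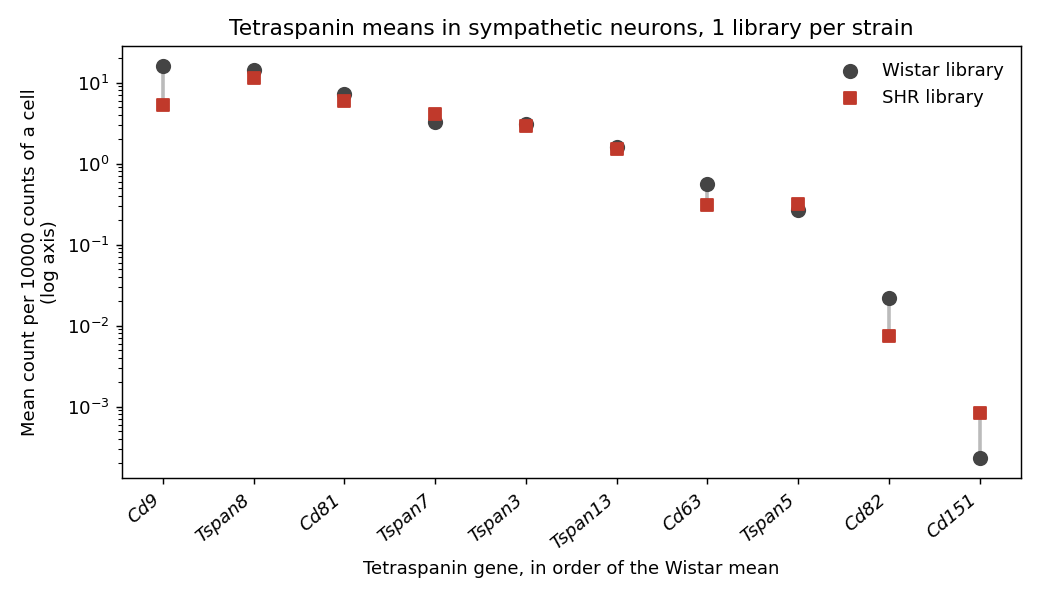
Means per 10000 counts (log axis) of the 10 tetraspanin genes in the Wistar library (grey circles) and the SHR library (red squares), with a line joining both values of a gene. Cd9 goes from 16.2 to 5.27, whereas Tspan3 and Tspan13 nearly coincide. Cd82 and Cd151 lie below 0.1, and there is 1 library per strain, so no error bars can be drawn.

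The other abundant members kept closer to their Wistar level. Tspan8, known from epithelia and from tumour cell vesicles, had a mean of 14.2 per 10000 in the Wistar library and 11.6 in SHR, a change of -18.3% and a log2 difference of -0.27. Cd81, a vesicle marker and a partner of immunoglobulin proteins, had a mean of 7.13 in Wistar and 5.86 in SHR, a change of -17.9% and a log2 difference of -0.25. Both were thus lower in SHR by a similar proportion, and their ratio to each other, which no scaling of a library can alter, was 1.98 in Wistar and 1.97 in SHR. The ratio of Cd9 to Cd81 was 2.27 in Wistar and 0.900 in SHR, and that of Cd9 to Tspan8 was 1.15 and 0.456. Cd9 therefore stood above both genes in the Wistar library and below both in the SHR library.

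Tspan7 was the only member with a mean above 1 per 10000 that was higher in SHR. The gene encodes a neuronal tetraspanin that binds Pick1 and takes part in AMPA receptor trafficking. Its mean was 3.22 per 10000 in the Wistar library and 4.07 in SHR, a change of 26.2% and a log2 difference of 0.26. Tspan3, whose mean was similar to that of Tspan7 in Wistar, had 3.04 in Wistar and 2.91 in SHR (log2 difference -0.05). Tspan13 had 1.60 in Wistar and 1.51 in SHR (log2 difference -0.05). The sign of both small differences turned when the median difference of all genes past the minimum, -0.05, was set to 0.

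The 4 remaining members were scarce. Cd63, the tetraspanin of late endosomes and lysosomes, had a mean of 0.561 per 10000 in the Wistar library and 0.306 in SHR, a change of -45.4% that amounts to a log2 difference of -0.26. Tspan5, which accompanies the sheddase Adam10, had 0.269 in Wistar and 0.314 in SHR (log2 difference 0.05). Cd82, known as a suppressor of metastasis, was listed at 0.0218 in Wistar and 0.00734 in SHR. Cd151, a partner of laminin-binding integrins, was listed at 0.000229 in Wistar and 0.000822 in SHR. Cd82 and Cd151 were below the minimum, and at an unknown depth no direction is read from them.

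By level, the Wistar order was Cd9, Tspan8, Cd81, Tspan7, Tspan3, Tspan13, Cd63, Tspan5, Cd82 and Cd151. In SHR the order was Tspan8, Cd81, Cd9, Tspan7, Tspan3, Tspan13, Tspan5, Cd63, Cd82 and Cd151. The chemistry counts 3' ends, so these levels were not divided by transcript length. Without replicates it cannot be said which neighbours in either order differ beyond their spread, and the means of Tspan7 and Tspan3 in Wistar or of Tspan5 and Cd63 in SHR were close.

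Of the 8 members past the minimum, 6 were lower and 2 higher in SHR, and the median of their log2 differences was -0.15. Over all 7621 genes past the minimum 65.6% were lower and 34.4% higher in SHR, and the median was -0.05. With a minimum of 1 per 10000 in its place, 5 of 6 members were lower with a median of -0.15, whereas 45.5% of all genes past that minimum were lower with a median of 0.04. With the median of all genes set to 0, 4 members were lower and 4 higher. Without Cd9, 5 of 7 were lower and the median was -0.05. By a fixed size of at least 0.5 in log2 difference, 1 member was lower (Cd9) and 0 were higher, against 2.15% and 1.23% of all genes. By a ratio of means of at least 1.5, Cd9 and Cd63 were lower and 0 members higher, against 26.5% and 5.22% of all genes. Since Cd9 was selected on its difference between these libraries, nothing is read from these counts. The next lowest member, Tspan8, stood at -0.27.

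**Figure D2:**
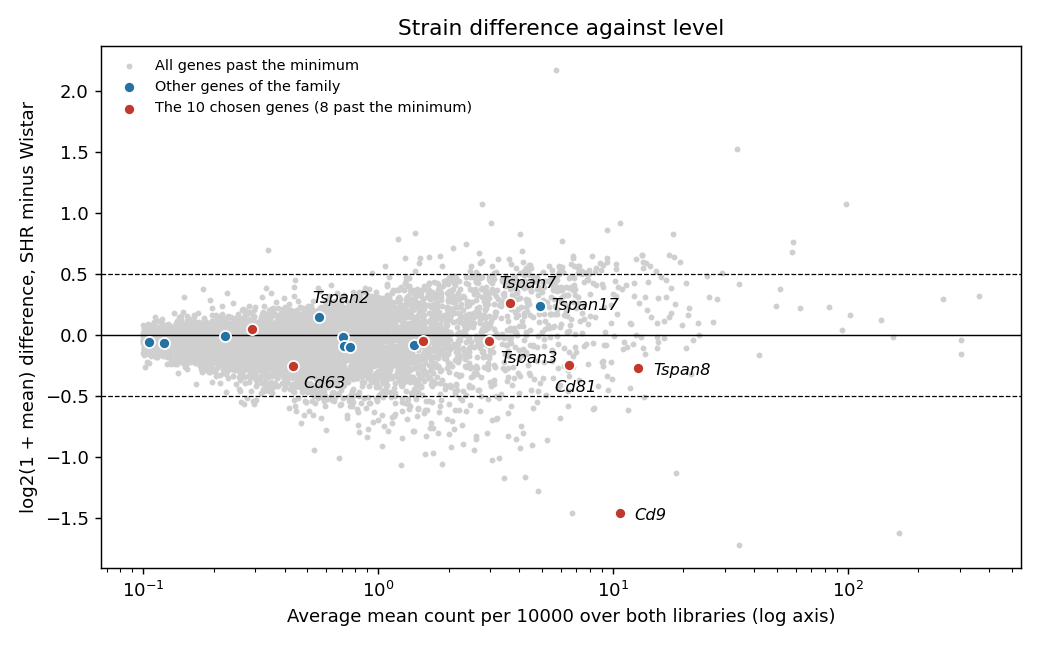
Difference of log2(1 + mean), SHR minus Wistar, against the average mean count per 10000 of both libraries (log axis), for the 7621 genes past the minimum (grey), the 8 chosen tetraspanins past it (red) and the 9 other tetraspanins past it (blue). Dashed lines mark the size of 0.5. Cd9 lies at -1.46, and the other tetraspanins lie between -0.27 and 0.26.

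Summed over the 10 members, the mean was 46.2 per 10000 in the Wistar library and 31.8 in SHR, a change of -31.2%. Cd9 made up 35.1% of the Wistar sum and 16.6% of the SHR sum, and its own difference made up 75.9% of the difference between the sums. Without Cd9 the sum went from 30.0 to 26.5 per 10000, a change of -11.6%. Tspan8 came to hold the largest part of the sum in SHR, at 36.3% against 30.6% in Wistar. The part of Tspan7 was 6.97% in Wistar and 12.8% in SHR.

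The family has further genes outside the chosen 10. Of 22 others listed, 20 have a line and 9 passed the minimum. Of these 9, 7 (77.8%) were lower and 2 higher in SHR, beside 65.6% lower over all genes. Their median log2 difference was -0.06, beside -0.05 over all genes, with a range from -0.10 to 0.23. With the median of all genes set to 0, 5 were lower and 4 higher. Tspan17, an escort of Adam10 like Tspan5, was the most abundant of them, with a mean of 4.42 per 10000 in the Wistar library and 5.38 in SHR, a change of 21.7% and a log2 difference of 0.23. In SHR its mean was close to that of Cd9. Tspan12, known from Norrin signalling in retinal vessels, had 1.49 in Wistar and 1.35 in SHR. Tspan2, which is prominent in myelinating glia, had 0.482 in Wistar and 0.641 in SHR (log2 difference 0.15).

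Tspan31, Tspan18 and Tspan6 had means between 0.664 and 0.823 per 10000 in either strain, with log2 differences of -0.10, -0.09 and -0.02. Tspan9 had a mean of 0.229 in Wistar and 0.218 in SHR. Tspan1 and Rom1, the second a photoreceptor gene, had 0.129 and 0.148 in Wistar and 0.0833 and 0.0959 in SHR. The leukocyte tetraspanins Cd37 and Cd53 were at or below 0.0124 per 10000 in both libraries, and the uroplakin gene Upk1b was listed at 0 in both. Tspan4 and Tspan10 were listed at 0 as well. Tspan19 and Prph2 were not analysed here.

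**Figure D3:**
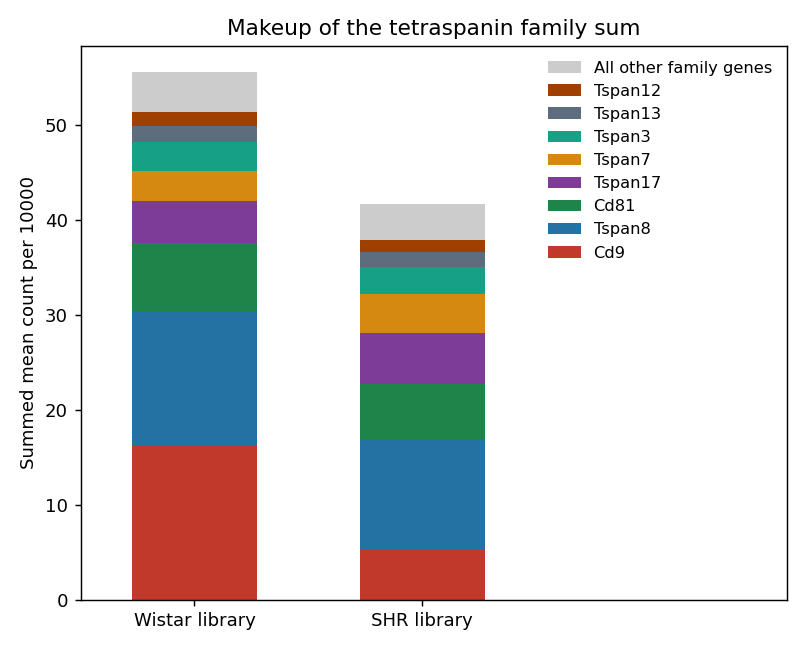
Stacked means per 10000 (from 0) of the 30 tetraspanin family genes with a line, in the Wistar and the SHR library, with the 8 most abundant genes in their own colours and the rest in grey. The family sum is 55.5 in Wistar and 41.7 in SHR, and the lowest segment, Cd9, takes 29.2% of the first and 12.7% of the second.

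Markers of satellite glia and fibroblasts also had lower means in the SHR neuron cluster. All 12 genes of the satellite glia and Schwann cell list with a line were lower in SHR, beside 68.1% of the 16389 genes counted with no minimum. The 12 include all 7 past the minimum, beside 65.6% lower over all genes past it. The defining transcription factor gene Sox10 had 0.0914 in Wistar and 0.0169 in SHR. The list summed to 20.8 per 10000 in the Wistar library and 12.1 in SHR. Most of that sum came from Pmp22 (11.3 and 8.58) and Apoe (6.24 and 2.23). The 10 others, among them S100b and Mbp, summed to 3.24 in Wistar and 1.28 in SHR, a change of -60.5%, and the highest of them was at 1.05. The Cd9 mean was 5.02 times this sum in Wistar and 4.12 times in SHR. It was below the sum of all 12 glial genes in both libraries (16.2 against 20.8 in Wistar, 5.27 against 12.1 in SHR). In proportion, 6 of the 12 glial genes changed by at least as much as Cd9. Of these, Sox10, Erbb3 and Kcnj10 were under the minimum, and Kcnj10 was listed at 0 in SHR. The share of all genes with such a change was not computed, so nothing is read from this count.

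In these marker lists genes under the minimum were counted too, and only the sums are compared where few genes passed it. The 6 fibroblast genes, of which 3 passed, summed to 1.84 per 10000 in Wistar and 0.353 in SHR. The 11 immune genes, of which 1 passed (Cd74), summed to 1.53 and 0.475, with the immune marker Ptprc below 0.005 in both. The endothelial, smooth muscle and pericyte, and erythrocyte lists had 0 genes past the minimum, and their sums were 0.119, 0.125 and 0.0669 in Wistar and 0.0536, 0.0704 and 0.0499 in SHR, from which no direction is read. The part of RNA from these cells in the Cd9 difference was not tested. Leaving all these markers out of the total changed the log2 difference of each member by less than 0.005. The markers summed to only 24.4 of 10000 in Wistar and 13.1 in SHR, so little change was possible. That alternative concerns the scaling only and says nothing on which cells the Cd9 counts came from. Of the 14 genes of the sympathetic neuron list, 7 were lower and 7 higher, beside 65.6% lower over all genes past the minimum. By the size of 0.5, 3 of the 14 were lower (Cacna1b, Dbh and Elavl4) and 0 higher, beside 2.15% and 1.23% of all genes. The sum of the 14 was 224.6 per 10000 in the Wistar library and 256.3 in SHR. Most of it came from Prph, Stmn2, Tubb3 and Uchl1, which were higher in SHR.

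Membrane partners of tetraspanins were listed separately, with 13 genes. Of the 11 past the minimum 8 (72.7%) were lower and 3 higher, beside 65.6% lower over all genes, with a median log2 difference of -0.12, and 0 reached the size of 0.5. The most abundant were Cd47, an integrin-associated protein, at 3.46 per 10000 in the Wistar library and 2.76 in SHR, and the integrin chain gene Itgb1 at 2.58 and 1.83. Itgb1 had the lowest log2 difference of the list (-0.34), a change of -29.2%. In proportion Itgb4, named after its values were seen, was the lowest past the minimum. Its mean was 0.260 in Wistar and 0.0721 in SHR, a change of -72.3%. The direct Cd9 partners Ptgfrn and Igsf8, named after their values were seen, had means of 0.0433 and 0.621 in Wistar and of 0.0181 and 0.700 in SHR. Cd44, also named afterwards, was higher in SHR (0.749 and 1.07, log2 difference 0.24).

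Of the TspanC8 group, the tetraspanins that bring Adam10 to the surface, only Tspan5 and Tspan17 passed the minimum. Both were higher in SHR, beside 34.4% higher over all genes. The summed mean over the group was 4.72 per 10000 in the Wistar library and 5.72 in SHR. Adam10 itself had a mean of 0.195 in Wistar and 0.145 in SHR. Of Adam10 and 4 of its substrates, 4 genes passed the minimum, all of them lower in SHR (median log2 difference -0.09). Over all genes 65.6% were lower, with a median of -0.05. With that median set to 0, 3 of the 4 were lower. App and L1cam were the most abundant, at 14.0 and 3.87 per 10000 in the Wistar library and at 12.9 and 3.33 in SHR.

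Genes of exosome formation and release, where Cd9, Cd63 and Cd81 serve as markers, were lower and higher in SHR in similar numbers. Of the 14 past the minimum 6 (42.9%) were lower and 8 higher, beside 65.6% lower over all genes, and 5 were lower and 9 higher with the median of all genes set to 0. The median log2 difference of the list was 0.02 and the range ran from -0.23 to 0.23. Flot1, a scaffold of membrane rafts, had 3.82 in Wistar and 3.36 in SHR, and Sdcbp (syntenin), which binds Cd63, had 2.88 and 3.42. The endolysosomal list, drawn up for the compartment of Cd63, also held the gene of a secreted protein, Timp1. Of its 10 genes 9 were lower in SHR, Timp1 among them (0.177 in Wistar and 0.0525 in SHR). Over all genes 65.6% were lower with a median of -0.05, and the list had a median of -0.23. The list was also lower in 9 genes with the median of all genes set to 0. Its most abundant gene Laptm4a had 7.38 in Wistar and 5.62 in SHR, whereas the protease gene Ctsb had 4.35 and 4.50.

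Pick1 and the AMPA receptor genes were listed as partners of Tspan7. Of the 5 genes 3 passed the minimum, and all 3 were lower in SHR (median log2 difference -0.18). Over all genes 65.6% were lower, with a median of -0.05. When ribosomal protein and mitochondrial genes were left out of the total, 4 of 5 past the minimum were lower, beside 63.3% of all genes. Gria2, which encodes the subunit that limits the calcium permeability of AMPA receptors, was the only gene of the partner lists beyond the size of 0.5. Its mean was 2.90 per 10000 in the Wistar library and 0.865 in SHR, a change of -70.1% and a log2 difference of -1.06. Pick1 had a mean of 0.398 in Wistar and 0.234 in SHR.

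**Figure D4:**
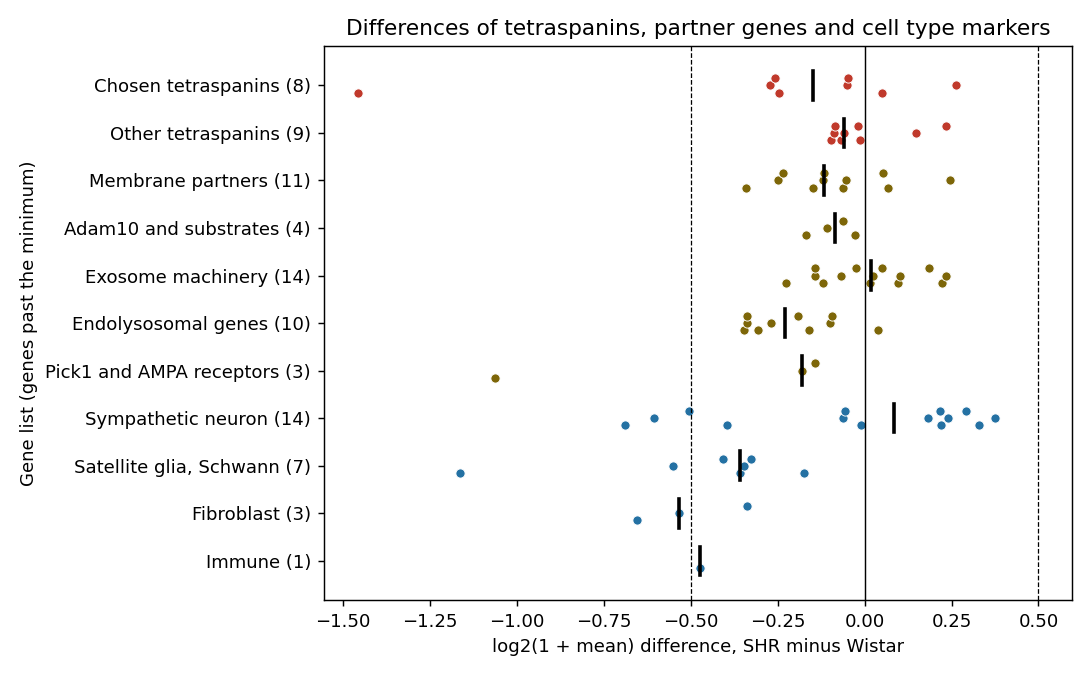
Difference of log2(1 + mean), SHR minus Wistar, of each gene past the minimum in the tetraspanin lists (red), the partner lists (ochre) and the cell type marker lists (blue), with the number of genes in brackets and the median as a black bar. Dashed lines mark the size of 0.5. Cd9 (-1.46), Gria2 (-1.06) and Apoe (-1.16) lie far to the left, and the glial list lies wholly below 0.

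Genes with the pattern most like that of Cd9 were taken by the distance of log2(1 + mean) over the 2 libraries. Among the 5 nearest were Map2 (distance 0.66), Dbh (0.66), Dst (0.69) and Scd2 (0.71). Map2, a microtubule-associated protein gene of dendrites, had a mean of 10.3 per 10000 in the Wistar library and 6.43 in SHR. No gene among these 5 had as low a log2 difference as Cd9, the lowest being that of Dst at -0.61. Of the 40 genes with a Wistar mean of at least that of Cd9, itself included, 13 were lower in SHR. Over all genes past the minimum 65.6% were lower, and 45.5% of those past 1 per 10000. Of the 13, 3 had a difference at least as low as that of Cd9, again counting Cd9. The cut was set by Cd9, which was selected on its difference, so nothing is read from these counts.

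The share of genes lower in SHR grew with gene span in these libraries, so the span was set beside the members. When 7291 genes were put into 10 equal classes by their GRCr8 span, class 1 holding the shortest, Cd9 and Tspan8 were in class 7, in which 76.1% of genes were lower and the median log2 difference was -0.07. Cd63 and Cd81 were in class 4, with a median of -0.04. Tspan7 in class 9 and Tspan5 in class 10, where 83.8% and 85.6% of genes were lower, were the 2 members past the minimum with higher means in SHR. The part of gene span in the members' differences was not tested.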

How the data were processed

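Stellate ganglia of Wistar rats and SHRs were sequenced as single cells, with 1 library per strain. Per the labels' processing notes, Cell Ranger 3.0.2, Seurat 3 and the build Rnor_6.0 were used, and the authors selected the sympathetic neuron cluster. The filters on cells and the treatment of doublets are not given in the sources used here. The authors deposited 1 value per gene and library, which is the natural log of the mean count per 10000 with 1 added. A further deposited table of the authors' own comparison (fold changes, p-values and shares of cells) was not used.

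Means were recovered by subtracting 1 from the exponential. Of 25399 lines, 4 were dropped because their name occurs more than once, and 25 names had been turned into dates. Differences are those of the deposited logs, expressed as log2, computed with Python 3.11.15, NumPy 2.4.6 and pandas 2.3.3 and tested on simulated data. The minimum was an average of 0.1 per 10000. Genes named were all members, other family genes past the minimum, partner genes with a log2 difference of at least 0.5 in size or among the 2 most abundant of their list, and the 5 genes nearest to Cd9. Members and lists were chosen with earlier results of these data known. A few genes were named after their values were seen, as stated, and some genes under the rule are not reported here. Spans, synonyms and sequences are from RefSeq (GRCr8), where 95.7% of the genes past the minimum had a span. Depth per neuron is unknown, so no counting error is given. The alternatives were other pseudocounts, minimums, totals and centring.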

Additional observations from a re-analysis of the deposited data

How the results depend on the processing

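A change of pseudocount cannot turn the sign of a difference, and Cd9 was selected on its low value. No support is therefore drawn from its sign. The log2 difference of Cd9, -1.46, was negative in every alternative tried. It became -1.60, -0.78 and -1.62 with pseudocounts of 0.1, 10 and 0.01 (the last chosen after seeing the data), -1.45 when the total left out ribosomal protein and mitochondrial genes, and -1.41 when all differences were centred on their median over the 7621 genes. The members' median, -0.15, became -0.18, -0.025 and -0.18 with these pseudocounts, beside -0.16, -0.0069 and -0.21 over all genes. It became -0.12 with the reduced total, -0.096 with the centring and -0.049 with no minimum, beside -0.047, 0 and -0.0076 over all genes. With the pseudocount of 0.01 the members' median was thus above that of all genes. The number of members lower by the size limit went from 1 to 2 with pseudocounts of 0.1 and 0.01 and with a ratio of means of at least 1.5 in place of the log2 limit. Cd63 was the gene added. By that ratio 26.5% of all genes were lower and 5.22% higher. The share of all genes past the size limit at pseudocounts of 0.1 and 0.01 was not computed, so nothing is read from the added gene. The centring adds 0.05 to each gene, which turned Cd82, Tspan3 and Tspan13 to 0.032, 0.0023 and 0.0049.

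No paired analysis was possible because there is 1 library for each strain, and none was left out for the same reason. Depth is unknown, so the smaller a mean, the less its difference can be relied on, and the values of Cd82 and Cd151 least of all.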
